A study of Macaca mulatta with 30 samples.

Results

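Expression of the EGF family was examined in 6 rhesus macaques, in liver, pancreas and 3 salivary glands (parotid, submandibular and sublingual). The 10 genes followed are the ligands EGF, TGFA, AREG, BTC, HBEGF and NRG1 and the receptors EGFR, ERBB2, ERBB3 and ERBB4. They were taken as a named list of family members, with no threshold on a measured value, and all 10 were found by symbol among the 21292 gene names of the deposited expression table. There was 1 library for each animal and tissue (30 libraries), so that the 6 replicates of a tissue are paired by animal with those of the others. Animals 1 to 4 were female and animals 5 and 6 male. No treatment, genotype or age is stated for any group, the tissue was flash frozen, and RNA came from 3 sections of each piece. The labels give the left gland for the parotid libraries of 5 animals and the right for that of animal 3. The design text names the gland-to-pancreas and pancreas-to-liver comparisons as primary, in a study of amylase genes.

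The ligands of this family are made as membrane-anchored precursors, are cut free by proteases at the cell surface, and bind receptor tyrosine kinases that pair with one another. EGFR binds EGF, TGFA, AREG, BTC and HBEGF. ERBB3 and ERBB4 bind the neuregulins, and ERBB4 also binds BTC and HBEGF. ERBB2 has no ligand of its own and is the preferred partner of the others, while ERBB3 has almost no kinase activity and signals through such pairs. In rodents the submandibular gland is the classic source of EGF in saliva. In the liver, EGFR and its ligands are known for their part in regeneration, and in the pancreas for their part in duct and acinar cell growth.

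Levels are in TPM, a transcript abundance scaled to transcript length, so that different genes can be compared within a library. Values are of a fixed total per library, and the sequencing depth is unknown. Differences were tested with limma on log2(TPM + 1) in 1 model of tissue and animal over 13550 genes that reached 1 TPM in at least 6 libraries. A log2 difference is the first tissue minus the second on the log2(TPM + 1) scale, where changes of genes at low levels are understated. Adjusted p-values are Benjamini-Hochberg values over all 13550 genes of a comparison, with 0.05 as threshold. Of the 10 family genes, 8 passed the filter. AREG and ERBB4 did not and were left out of these tests. For AREG a separate fit without the filter is given. In these bulk samples, fewer cells of a type and less RNA per cell cannot be told apart.

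A few libraries stood apart in marker genes of cell types. In animal 4 the pancreas library had an acinar marker median of 320 TPM, against 12318 to 33622 TPM for the other pancreas libraries, and its adipocyte marker median was 1338 TPM. In the other tissues the acinar medians ran from 27.8 to 455 TPM, so the library lay within their range. In the same animal the submandibular library had a serous marker median of 108 TPM, against 9708 to 14145 TPM for the other submandibular libraries, and its adipocyte marker median was 713 TPM. Serous medians were 278 to 364 TPM in liver and 152 to 353 TPM in pancreas, all above that library. The skeletal muscle marker median of the parotid library of animal 6 was 11067 TPM. These 3 libraries are called off-marker below and are kept in all results unless stated otherwise. In the sublingual libraries of animals 1 and 4, 8 markers of stratified squamous epithelium, a list added after the values had been seen, summed to 31870 and 87886 TPM, against 2.13 to 315 TPM in the other 4. The salivary mucous marker medians of those 2 libraries were 862 and 274 TPM, against 5101 to 10462 TPM. The skeletal muscle marker median was 1287 TPM in the sublingual library of animal 1 and 2956 TPM in that of animal 5. Hepatocyte marker medians were 8140 to 13451 TPM in liver and 35.5 to 97.4 TPM elsewhere. The 10 most abundant genes took 73.4 to 81.4% of all TPM in the parotid libraries other than that of animal 6, and 20.3 to 27.4% in liver. The part of these features in the results was not tested.

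Over the 5 tissues together, the F test found differences for 6 of the 8 tested family genes, against 66.8% of all genes. NRG1 had the smallest adjusted p-value (limma, 3.97e-10), followed by ERBB2 (2.2e-06), EGFR (7.98e-06), ERBB3 (0.00107), TGFA (0.00593) and EGF (0.00617). HBEGF (0.0539) and BTC (0.497) did not pass. A share of 6 in 8 is near that of all genes.

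**Figure D1:**
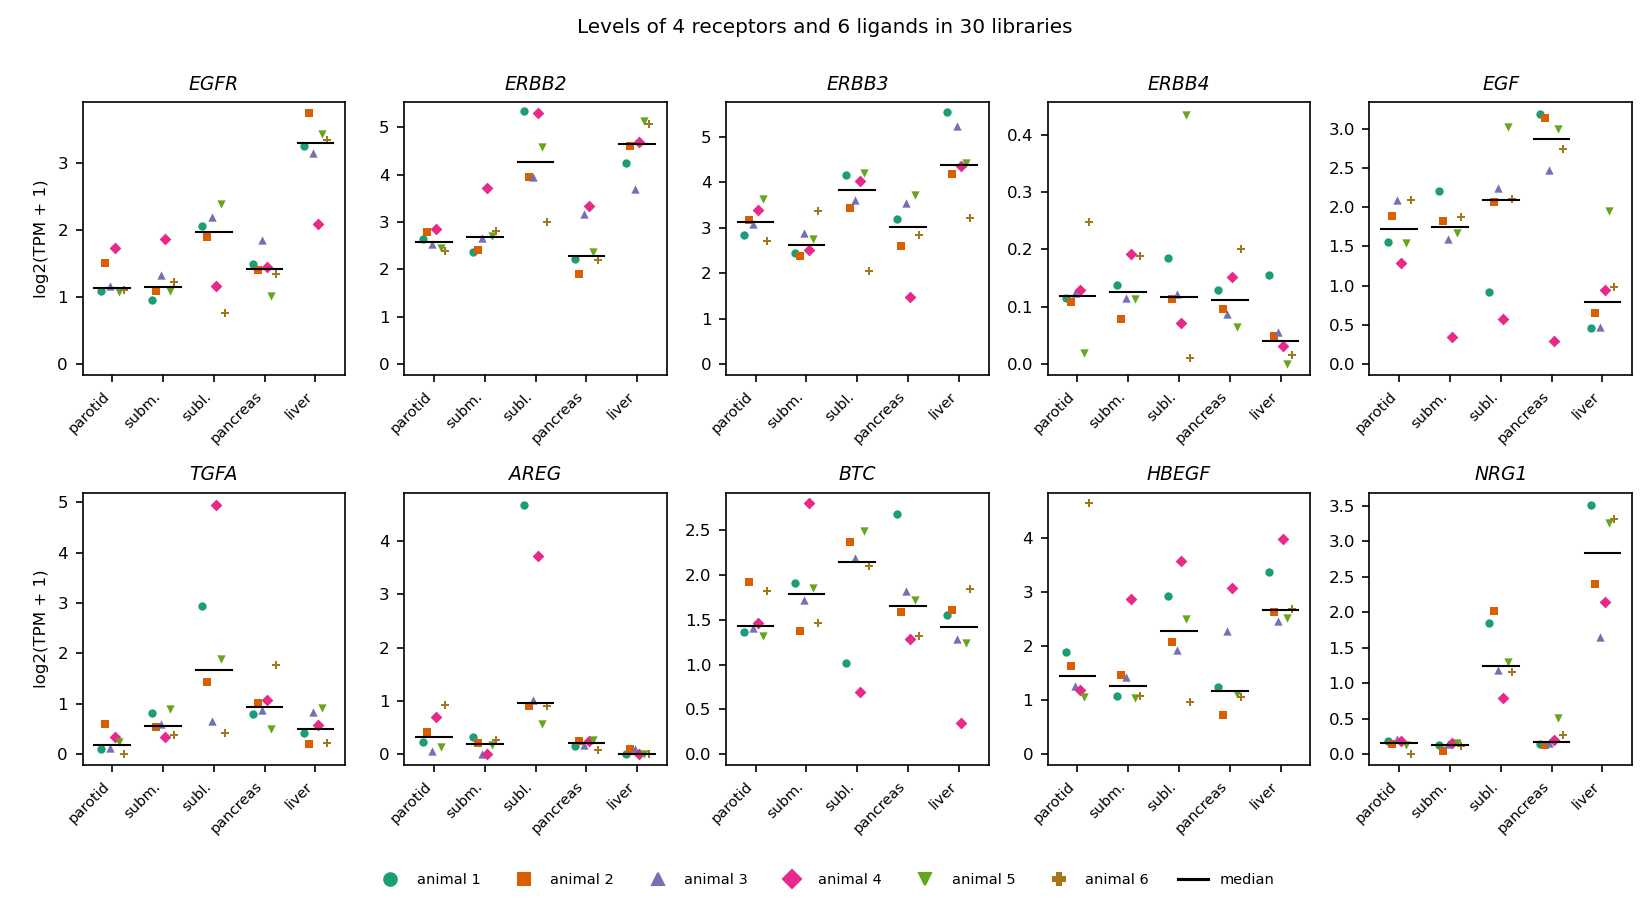
Levels of the 4 receptors and 6 ligands on the log2(TPM + 1) axis by tissue, 1 point per library with a symbol for each animal; the line is the median of 6 libraries and each panel has its own axis. EGFR, ERBB2, ERBB3 and NRG1 had their highest medians in liver, EGF in pancreas, and TGFA and AREG in sublingual gland, where animals 1 and 4 lay far above the others.

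EGF, the founding member, is a large precursor with a single growth factor unit. Its level in pancreas was 0.227, 6.33 and 8.11 TPM (lowest, median and highest of 6), with a mean of 5.55 ± 2.93 (SD, n = 6). In liver it was 0.38, 0.746 and 2.85 TPM. The pancreas libraries of 5 animals were at 4.53 TPM or more, above every liver library, and the off-marker library of animal 4 held the lowest value of EGF in any tissue. In 5 of 6 animals EGF in pancreas exceeded EGF in liver, by 1.56 on the log2 scale (SE 0.34, limma adjusted p = 0.000812). This call held under all 19 alternatives that tested the gene, which the filter at 5 TPM removes along with NRG1, EGFR, TGFA and BTC.

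In the salivary glands EGF was low. Parotid libraries held 1.45, 2.32 and 3.27 TPM (lowest, median, highest), submandibular libraries 0.269, 2.37 and 3.59 TPM, and sublingual libraries 0.492, 3.25 and 7.10 TPM. The ranges of the 3 glands overlapped, and parotid and submandibular gland did not pass in limma (0.15, 95% interval -0.55 to 0.86, adjusted p = 1). The lowest submandibular value, 0.269 TPM, was again that of animal 4, and the next was 2.03 TPM. Parotid exceeded liver by 0.83 (limma adjusted p = 0.0396) and sublingual gland exceeded liver by 0.91 (adjusted p = 0.0427), each in 5 of 6 animals. Submandibular gland minus liver was 0.68 (adjusted p = 0.0993), higher in 4 of 6. With trimmed-mean scaling, which divides each library by a factor set from the bulk of its genes, the parotid difference was 1.54 (adjusted p = 0.0017) and the submandibular one 1.40 (adjusted p = 0.0036). Both calls in TPM as deposited were lost without the animal block, at adjusted p = 0.0923 and 0.108, and the sublingual call also under all 3 scalings (adjusted p from 0.0568 to 0.0747). Leaving out animal 1, 2, 3 or 6 ended the parotid call, and leaving out animal 2, 3, 5 or 6 the sublingual call, with log2 differences from 0.67 to 1.08 and from 0.74 to 1.17.

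The mean of EGF in pancreas was above that in each gland, yet these differences did not pass with all libraries in. The log2 difference from pancreas was -0.73 for parotid (limma adjusted p = 0.137), -0.88 for the submandibular (adjusted p = 0.106) and -0.65 for the sublingual gland (adjusted p = 0.235). Without the 3 off-marker libraries they were -1.10, -1.07 and -0.98, and all 3 passed (limma adjusted p = 0.0161, 0.0134 and 0.0165). Without animal 4 as a whole they were -1.07, -1.07 and -0.83, and all 3 passed as well. With trimmed-mean scaling of all 30 libraries they were -0.29, -0.43 and -0.94, and none of the 3 passed. EGF was the most abundant of the 6 ligands in 5 of 6 pancreas libraries, with 45.1% ± 23.2 of their summed TPM (SD, n = 6).

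TGFA, a ligand of EGFR made by many epithelia, was low outside the sublingual gland. Its highest value was 0.51 TPM in parotid, 0.881 TPM in liver, 0.87 TPM in submandibular gland and 2.39 TPM in pancreas. It reached 1 TPM in 4 sublingual and 3 pancreas libraries, and met the filter through these. In the sublingual libraries of animals 1 to 6 it was 6.73, 1.71, 0.585, 29.9, 2.7 and 0.339 TPM. Animals 1 and 4 stood out, and the values of animals 3 and 6 lay within the range of the submandibular gland. TGFA was higher in sublingual gland than in parotid in 6 of 6 animals (parotid minus sublingual -1.82, SE 0.43, limma adjusted p = 0.0023). It was also higher than in submandibular gland in 6 of 6 (-1.46, adjusted p = 0.0149) and than in liver in 5 of 6 (1.52, adjusted p = 0.00743). Sublingual gland did not pass against pancreas (1.05, limma adjusted p = 0.114), where it was higher in 4 of 6 animals. The call against submandibular gland was lost under all 3 scalings, with -0.89 (adjusted p = 0.185) after the trimmed-mean one. Without the 2 sublingual libraries high in squamous markers, the difference from submandibular gland was -0.49 (limma adjusted p = 0.17) and that from liver 0.56 (adjusted p = 0.123). That from parotid was then -0.86 and passed (adjusted p = 0.0157).

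AREG, amphiregulin, another EGFR ligand, reached 1 TPM in 3 libraries, all of sublingual gland. There it was 24.7, 0.861, 1.02, 12.3, 0.473 and 0.866 TPM in animals 1 to 6. As with TGFA, animals 1 and 4 were far above the rest. In the other tissues it ranged from 0.0408 to 0.887 TPM (parotid), 0 to 0.249 TPM (submandibular), 0.0566 to 0.201 TPM (pancreas) and 0 to 0.0746 TPM (liver), where 4 libraries are listed at 0. In a fit without the filter, sublingual gland differed from the other 4 tissues past the threshold (limma adjusted p = 0.0116 against parotid, 0.00704 against submandibular gland, 0.00867 against pancreas and 0.00194 against liver). AREG was then higher in sublingual gland in 5 of 6 animals against parotid and in 6 of 6 against the other 3. That fit holds the libraries of animals 1 and 4, and AREG was not fitted without them. The remaining sublingual values, 0.473 to 1.02 TPM, overlapped with parotid.

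BTC, betacellulin, which binds both EGFR and ERBB4, was the most even of the ligands. Its mean was lowest in liver, 1.61 ± 0.793 TPM (SD, n = 6), then 1.96 ± 0.547 in parotid, 2.53 ± 1.48 in pancreas, 2.83 ± 1.60 in submandibular and 2.88 ± 1.67 in sublingual gland. All 5 ranges overlapped and no pair passed in TPM as deposited. The largest of the 10 differences was 0.54, submandibular gland minus liver (limma adjusted p = 0.171, 95% interval -0.13 to 1.21). With trimmed-mean scaling BTC was higher than in liver in parotid (1.00, limma adjusted p = 0.00287), submandibular gland (1.17, adjusted p = 0.000695) and pancreas (0.69, adjusted p = 0.0383). Animals 1 and 4 had the lowest sublingual values of BTC, 1.03 and 0.615 TPM, against 3.28 to 4.64 TPM in the other 4.

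HBEGF, a heparin-binding ligand of EGFR and ERBB4, had its highest median in liver. Liver libraries held 4.54, 5.32 and 14.9 TPM (lowest, median, highest), pancreas libraries 0.656, 1.26 and 7.47 TPM, and submandibular libraries 1.06, 1.41 and 6.36 TPM. The ranges overlapped through the off-marker libraries of animal 4, which held the highest value in pancreas and in submandibular gland. HBEGF was lower than in liver in 6 of 6 animals in submandibular gland (-1.45, SE 0.48, limma adjusted p = 0.0154) and in pancreas (-1.36, adjusted p = 0.0339). With trimmed-mean scaling the pancreas difference was -1.04 (adjusted p = 0.0531) and the submandibular one -0.73 (adjusted p = 0.157). The pancreas call was also lost without animal 1, 2 or 5, and the submandibular call without animal 1.

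In parotid, HBEGF was 1.08 to 2.73 TPM in 5 animals and 24.1 TPM in animal 6, the library with the high muscle markers. With that library the parotid was not called against liver (-1.0, limma adjusted p = 0.0796), and the difference turned to 0.22 when the 100 most abundant genes were left out of each total. Without the 3 off-marker libraries the difference was -1.65 and passed (adjusted p = 6.36e-05). Its sublingual values ran from 0.944 to 11 TPM, highest in animal 4.

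NRG1, a neuregulin that binds ERBB3 and ERBB4, had the smallest F test p-value of the 8 tested family genes. Liver libraries held 2.15, 6.44 and 10.4 TPM (lowest, median, highest) and sublingual libraries 0.738, 1.37 and 3.04 TPM. No library of parotid, submandibular gland or pancreas exceeded 0.427 TPM. NRG1 thus met the filter only through its liver and sublingual libraries, of which 6 and 5 reached 1 TPM. Its place in the F test and its calls rest on those same values, so they are not independent of that entry. Both liver and sublingual gland lay wholly above those 3 tissues, and their own ranges overlapped. The log2 differences from liver were -2.57 in parotid (limma adjusted p = 7.06e-10), -2.59 in submandibular gland (adjusted p = 6.55e-10), -2.48 in pancreas (adjusted p = 1.87e-09) and -1.33 in sublingual gland (adjusted p = 4.89e-05), with an SE of 0.23. NRG1 in sublingual gland exceeded that in pancreas by 1.15 (limma adjusted p = 0.00081), and parotid and submandibular gland were below it by log2 differences of -1.24 and -1.26. All 7 differences went the same way in 6 of 6 animals and passed under all 19 alternatives that tested NRG1. Schwann cell and nerve markers had medians of 0.802 to 8.97 TPM in sublingual gland and 0.678 to 1.73 TPM in liver. The part of nerve in the NRG1 level was not tested. In the RefSeq gene table NRG1 overlaps the coding gene LOC144330769 and EGF overlaps the coding gene LOC698741, and how the authors treated shared reads is not stated, so the levels of both carry that uncertainty.

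Among the receptors, EGFR was highest in liver. Liver libraries held 3.26, 8.80 and 12.4 TPM (lowest, median, highest), parotid libraries 1.11, 1.20 and 2.33 TPM, submandibular libraries 0.933, 1.22 and 2.63 TPM, and pancreas libraries 1.01, 1.68 and 2.59 TPM. Every liver library lay above every library of those 3 tissues. Sublingual libraries, at 0.697, 2.94 and 4.23 TPM, overlapped with liver through animal 4, whose liver value of 3.26 TPM was less than any other liver's. Minus liver, the differences were -1.89 (parotid), -1.91 (submandibular), -1.74 (pancreas) and -1.42 (sublingual) (SE 0.28, limma adjusted p = 4.73e-06, 4.62e-06, 2.25e-05 and 0.000254). All 4 held in 6 of 6 animals and under the 19 alternatives that tested EGFR. Among the glands and pancreas the order of medians was sublingual, pancreas, submandibular and parotid, and no neighbours in it passed.

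ERBB2, the receptor without a ligand, was high in 2 tissues. It was 12, 23.9 and 33.8 TPM in liver (lowest, median, highest) and 6.97, 18.6 and 39.7 TPM in sublingual gland. In parotid it was 4.21, 5.01 and 6.25 TPM, in submandibular gland 4.12, 5.43 and 12.2 TPM, and in pancreas 2.76, 3.90 and 9.05 TPM. Liver and sublingual gland did not pass against each other (-0.22, 95% interval -0.89 to 0.45, limma adjusted p = 0.669), and the difference was 0.15 with quantile normalisation and 0.15 without animal 6. ERBB2 was below liver in 6 of 6 animals in pancreas (-2.04), parotid (-1.96) and submandibular gland (-1.79), with an SE of 0.33 and limma adjusted p-values of 1.85e-05, 2.09e-05 and 7.48e-05. The parotid and submandibular differences shrank to -0.86 and -0.88 with trimmed-mean scaling (adjusted p = 0.0145 and 0.0118). They were lost with quantile normalisation (-0.61 each, adjusted p = 0.0539 and 0.0542) and with the 100 most abundant genes left out of each total (-0.52 and -0.44, adjusted p = 0.215 and 0.287). The pancreas difference passed under all 3, at -1.62, -1.34 and -1.38.

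Sublingual gland exceeded pancreas in ERBB2 in 6 of 6 animals (1.82, limma adjusted p = 0.000221), and it exceeded parotid (parotid minus sublingual -1.74, adjusted p = 0.000353) and submandibular gland (-1.57, adjusted p = 0.00142). The 2 highest sublingual values, 39.7 and 38.5 TPM, were those of animals 1 and 4. Without these 2 libraries the differences were 1.40 from pancreas, -1.32 for parotid and -1.15 for submandibular gland, and all 3 passed (limma adjusted p = 0.00541, 0.00521 and 0.0182). With trimmed-mean scaling of all libraries the parotid and submandibular differences were -0.78 and -0.80 and did not pass (adjusted p = 0.0526 and 0.0529), nor did they with the 100 most abundant genes left out of each total (-0.42 and -0.34). The sublingual difference from pancreas was then 1.55 and passed.

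ERBB3, a neuregulin receptor, had the highest mean of the family genes in parotid, in pancreas and, close to ERBB2, in liver. It had its highest median in liver. Liver libraries held 8.24, 19.8 and 45.7 TPM (lowest, median, highest), sublingual libraries 3.16, 13.3 and 17.5 TPM, and parotid libraries 5.52, 7.73 and 11.3 TPM. Pancreas libraries held 1.79, 7.13 and 12.1 TPM and submandibular libraries 4.18, 5.2 and 9.25 TPM. All ranges overlapped, in part through the liver library of animal 6, which held the lowest liver value. The differences from liver were -1.60 in pancreas and -1.35 in parotid, each in 6 of 6 animals, and -1.77 in submandibular gland in 5 of 6 (SE 0.36, limma adjusted p = 0.00121, 0.00295 and 0.000277). These depended on the scaling. The parotid difference turned to 0.00596 with quantile normalisation and to 0.16 when the 100 most abundant genes were left out of each total. With trimmed-mean factors it was -0.22 (adjusted p = 0.68), the submandibular difference -0.81 (adjusted p = 0.0941) and the pancreas difference -1.11 (adjusted p = 0.0293). The pancreas call was lost with quantile normalisation (-0.80, adjusted p = 0.115).

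ERBB4, a receptor of neuregulins, BTC and HBEGF, was at 0 to 0.352 TPM in all 30 libraries. Its highest value was in a sublingual library and its lowest in liver, and no tissue had a median above 0.0913 TPM.

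**Figure D2:**
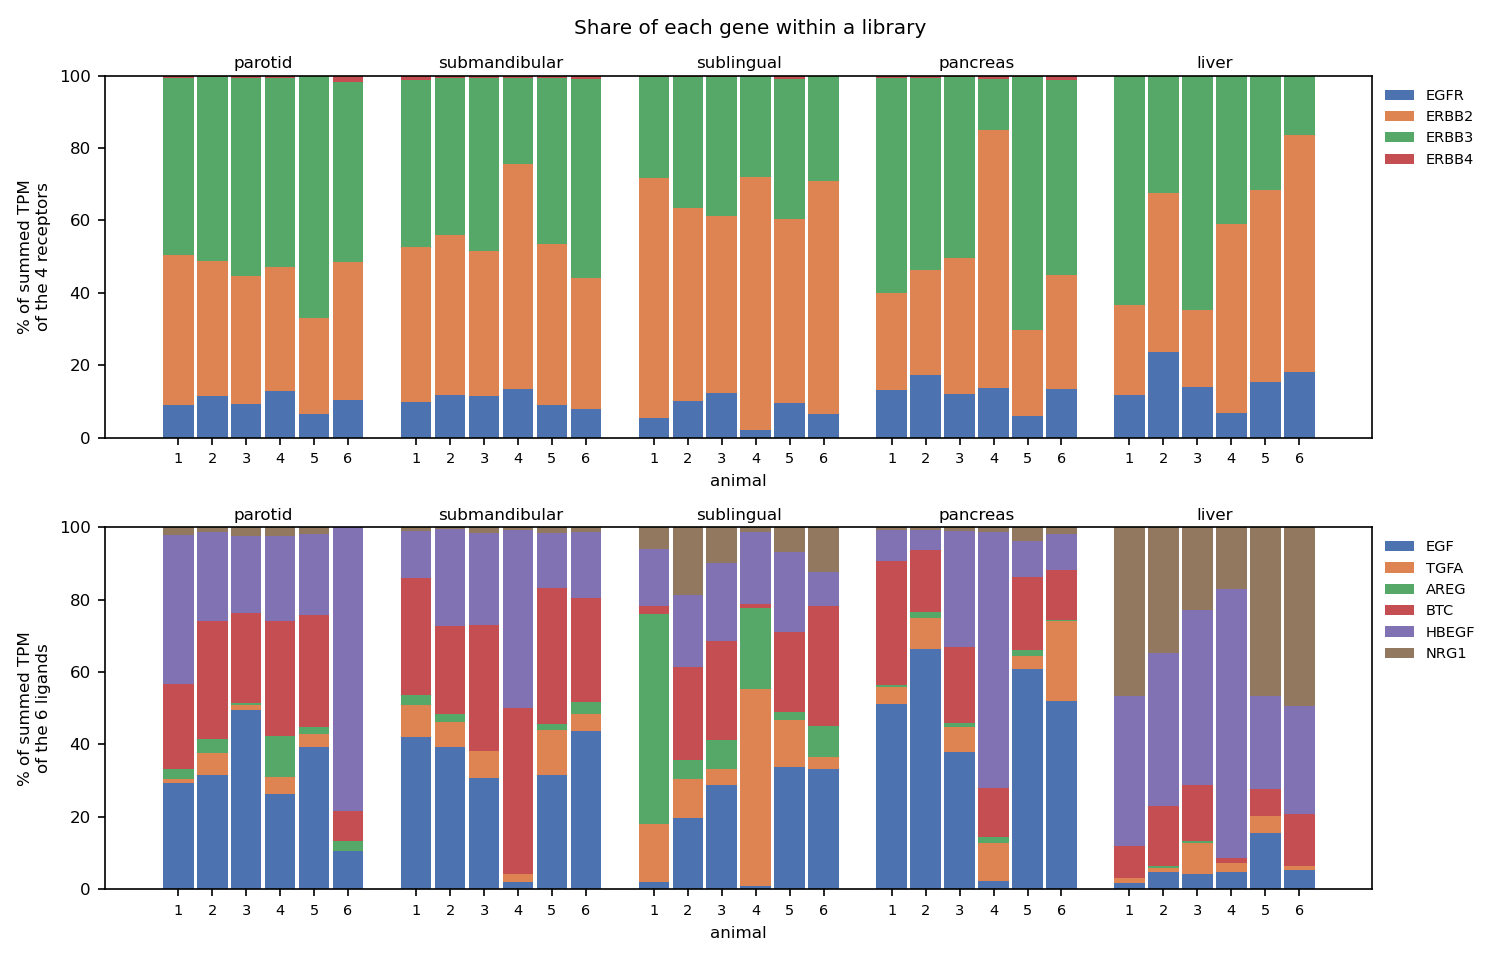
Percent of the summed TPM of the 4 receptors (top) and of the 6 ligands (bottom) taken by each gene, 1 bar per library, ordered by tissue and animal. ERBB2 took the largest receptor share in all 6 sublingual libraries and ERBB3 in all 6 parotid libraries, while the leading ligand changed between animals in every tissue.

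Within a library the receptors can be compared free of the scaling between libraries. ERBB2 made up 59.0% ± 8.94 of the 4 receptors in sublingual gland (SD, n = 6), with a lowest value of 49.0%, and was the highest receptor in 6 of 6 libraries. In parotid it was ERBB3 that led in 6 of 6 libraries, with 53.9% ± 6.67 against 35.5% ± 5.06 for ERBB2. The ERBB2 shares of these 2 glands did not overlap, since the highest parotid share was 41.5%. In submandibular gland ERBB3 led in 4 of 6 libraries and in pancreas in 5 of 6. The exception in pancreas was animal 4, where ERBB2 took 71.4%. In liver ERBB2 led in 4 libraries and ERBB3 in 2. EGFR took, as a mean of 6 libraries, 14.9% in liver, 12.6% in pancreas, 10.5% in submandibular, 9.89% in parotid and 7.62% in sublingual gland. The summed TPM of the receptors was 57.1 ± 9.37 in liver and 37.8 ± 18.7 in sublingual gland, against 14.7 ± 2.73 in parotid, 13.6 ± 4.00 in submandibular gland and 14.3 ± 4.29 in pancreas (SD, n = 6).

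By tissue means the 6 listed ligands summed to less than the 4 receptors, at a mean of 26.3 ± 18.2 TPM in sublingual gland, 16.8 ± 4.92 in liver, 12.1 ± 1.92 in pancreas, 10.5 ± 10.01 in parotid and 7.96 ± 2.59 in submandibular gland (SD, n = 6). The ligand sum was the larger in the parotid library of animal 6 (30.7 against 11.1 TPM). It was so too in the pancreas libraries of animals 1 (15.9 against 13.7 TPM) and 2 (11.7 against 9.50 TPM). Without the off-marker libraries of animals 6 and 4 the means were 6.41 ± 1.40 in parotid and 6.96 ± 0.947 in submandibular gland (SD, n = 5). NRG4, which is outside the list, had a mean of 17.3 ± 13.6 TPM in pancreas (SD, n = 6), above the mean sum of the 6 listed ligands there. By library it was above that sum in animals 2, 3 and 5 and below it in animals 1, 4 and 6. Its highest pancreas value was 43.5 TPM, in animal 2. In liver HBEGF and NRG1 each led in 3 libraries, with mean shares of 43.8% and 36.2%. In sublingual gland EGF led in 3 libraries and AREG, TGFA and BTC in 1 each. AREG took 58% in animal 1 and TGFA 54.4% in animal 4.

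**Figure D3:**
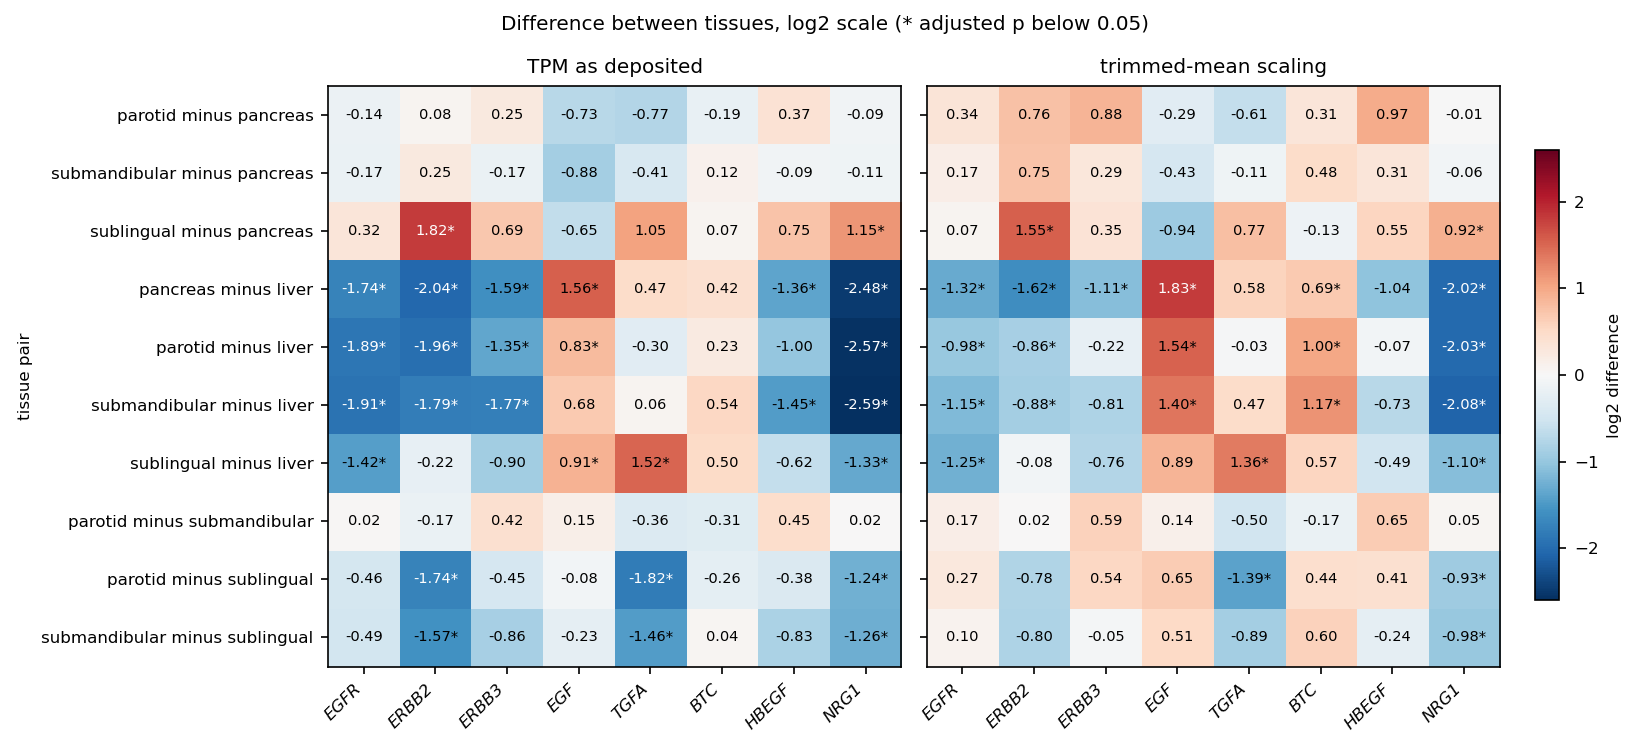
Log2 differences of the 8 tested family genes (columns) for the 10 tissue pairs (rows), in TPM as deposited (left) and after trimmed-mean scaling (right); colour gives the size and an asterisk an adjusted p-value below 0.05. The columns of NRG1 and EGFR keep their calls against liver on both sides, whereas ERBB3 loses those of parotid and submandibular gland and BTC gains 3 calls against liver.

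Counted by comparison, the family gave 28 calls in 80 tests. Against liver, pancreas had 5 family genes lower and 1 higher, where 30.4% of all genes were called, 23.6% lower and 6.76% higher. Parotid had 4 lower and 1 higher, beside 58% of all genes, 53.4% lower and 4.61% higher. Submandibular gland had 5 lower and 0 higher, beside 50.7%, of which 45.1% lower. Sublingual gland had 2 lower (NRG1 and EGFR) and 2 higher (EGF and TGFA), beside 31.5%, with 18.7% lower and 12.8% higher. The shares in parotid, submandibular and sublingual gland were 5, 5 and 4 of 8 and lie near those of all genes. The whole table was shifted in these pairs: minus liver, the median log2 difference of all genes was -0.84 for parotid, -0.70 for the submandibular gland, -0.36 for pancreas and -0.10 for the sublingual gland.

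The split between higher and lower calls depended on this shift. With trimmed-mean scaling 46% of all calls in parotid against liver were higher, in place of 7.94%, and in submandibular gland 44.5% in place of 11.2%. Parotid then had 2 family genes higher than liver (EGF and BTC) and 3 lower (NRG1, EGFR and ERBB2), beside 20% of all genes higher and 23.5% lower. Submandibular gland had the same 2 higher and the same 3 lower, beside 20.8% and 25.9%. Pancreas had EGF and BTC higher and NRG1, EGFR, ERBB2 and ERBB3 lower, beside 15.2% and 21.6%. Against sublingual gland, parotid kept TGFA and NRG1 as lower, beside 9.11% of all genes lower and 8.43% higher, and submandibular gland kept NRG1, beside 8.26% and 6.46%. Higher calls were then 48.1% and 43.9% of all calls in these 2 pairs, in place of 2.15% and 2.69%. Among all genes the higher share also moved against pancreas, from 14.2% to 51.3% of calls in parotid, from 23.2% to 51.3% in submandibular gland and from 74.8% to 53.3% in sublingual gland, while the family genes called there stayed at 0, 0 and 2.

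In pancreas NRG1, EGFR and ERBB2 lay wholly below liver, 3 of 8 family genes, where 11.3% of all genes did so. In parotid the same 3 genes did, beside 36.7% of all genes. In submandibular gland NRG1 and EGFR did, beside 11.6%. As NRG1 met the filter only through its liver and sublingual libraries, its place in these counts is not independent of that entry.

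The comparison of glands with pancreas gave few calls. Parotid and submandibular gland had 0 of 8 family genes past the threshold against pancreas in limma, beside 15.8% and 9.71% of all genes. At an unadjusted p below 0.05 there was 1 in each, EGF. Sublingual gland had 2 higher, ERBB2 and NRG1, and 0 lower, beside 13.9% of all genes, of which 10.4% higher. Parotid and submandibular gland gave 0 calls against each other, beside 0.347% of all genes, and 0 at an unadjusted p below 0.05. Parotid had 3 family genes lower than sublingual gland, beside 41.5% of all genes (40.6% lower). Submandibular gland also had 3, beside 27.9% (27.2% lower). They were TGFA, NRG1 and ERBB2 in both comparisons, which share the sublingual libraries.

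Without the 3 off-marker libraries more genes were called in general. The family genes called were then EGF alone in parotid against pancreas (28.2% of all genes) and in submandibular gland against pancreas (34.9%). Sublingual gland against pancreas had 4 (37.8%), with EGF and HBEGF added. Against liver there were 5 in sublingual gland (45.4%), 6 in submandibular gland (73.9%) and 6 in parotid (73.9%). Parotid against sublingual gland had 4 (69.4%) and submandibular against sublingual gland 6 (69.7%).

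**Figure D4:**
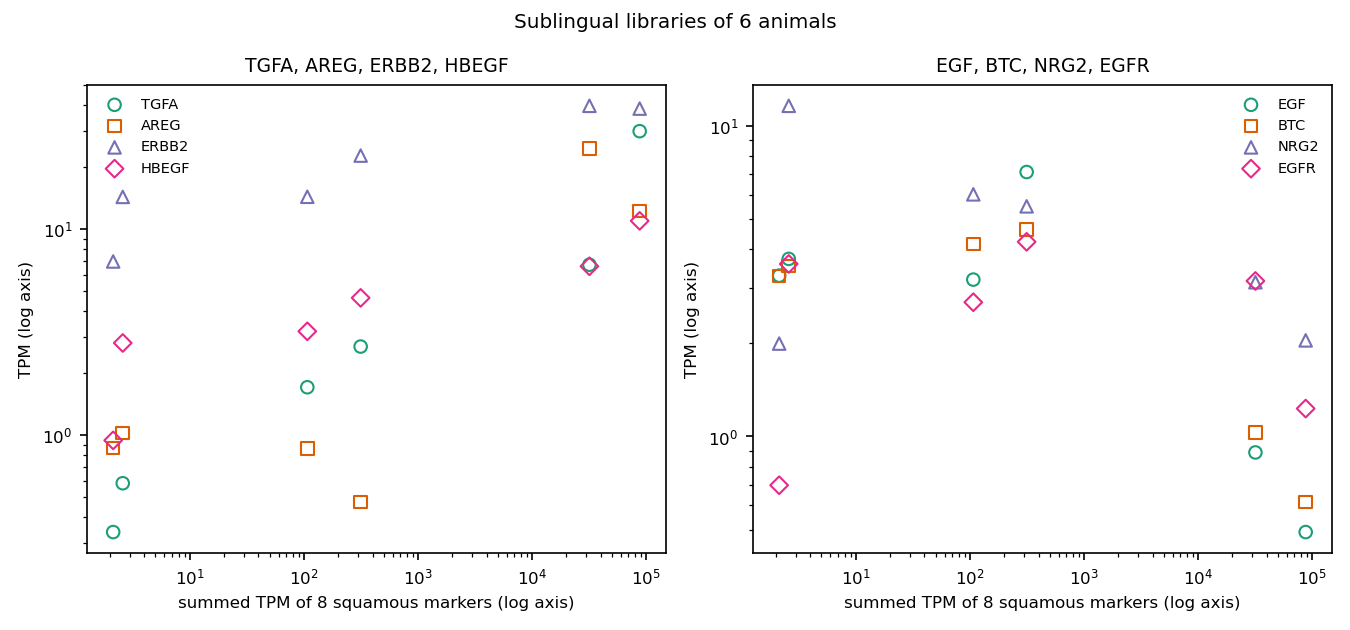
TPM of 8 genes in the 6 sublingual libraries (log axis) against the summed TPM of 8 squamous epithelial markers in the same library (log axis), 1 symbol per gene. The 2 libraries at the right, animals 4 and 1, held the highest TGFA, AREG, ERBB2 and HBEGF and the lowest BTC of the 6; EGF was also lowest there.

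The 6 sublingual libraries differed more among themselves than those of the other glands for several ligands. In animals 1 and 4, whose squamous markers were high, TGFA, AREG, HBEGF and ERBB2 were above the other 4, and EGF and BTC below them. The EGF values were 0.889 and 0.492 TPM, against 3.20 to 7.10 TPM. KRT13, a keratin of mucosal squamous epithelium, was at 10694 TPM in animal 1 and 34537 TPM in animal 4, whereas the remaining 4 libraries held 0.778 to 130 TPM. EPGN, epigen, another ligand of EGFR, showed the same split, at 3.91 and 4.27 TPM against 0.119 to 1.52 TPM. EREG, epiregulin, reached 1 TPM in 1 library of the 30, the sublingual library of animal 4, at 2.20 TPM. ERBB3 (16.8 and 15.3 TPM) in these 2 libraries lay within the range of the other 4, and of the NRG1 values 2.59 TPM lay within it and 0.738 TPM below it. The split was noticed in the data, rests on 2 libraries, and was not tested.

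The other ligands of the family were taken from a list of 6, of which NRG4, EPGN and NRG2 passed the filter. NRG4, a neuregulin that binds ERBB4, was highest in pancreas, at 4.13, 14.7 and 43.5 TPM (lowest, median, highest). In liver it was 3.71, 5.53 and 7.91 TPM, and in parotid, submandibular and sublingual gland its medians were 1.06, 0.716 and 2.74 TPM. The lowest pancreas value was that of animal 4. NRG4 differed from pancreas by -2.85 (parotid), -3.11 (submandibular) and -2.03 (sublingual), lower in 6 of 6 animals (limma adjusted p = 1.59e-05, 6.57e-06 and 0.000846). In those pancreas libraries ERBB4, its receptor, was at 0.0459 to 0.149 TPM.

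EPGN was at 3.86, 9.78 and 12.2 TPM in liver, and below 1 TPM in every parotid, submandibular and pancreas library. It thus met the filter only through liver and sublingual libraries. Its log2 differences from liver were -2.84 (parotid and submandibular), -2.73 (pancreas) and -1.85 (sublingual), with a largest limma adjusted p of 7.63e-06. In the RefSeq gene table EPGN overlaps MTHFD2L, and how the authors treated shared reads is not stated, so its level is uncertain. The same table places BTC, AREG, EREG and EPGN next to one another among coding genes. NRG2 went the other way, at 0.153 to 0.326 TPM in liver and 1.99 to 11.6 TPM in sublingual gland, with no overlap. It was higher than in liver in sublingual gland (2.12, limma adjusted p = 2.72e-07), pancreas (1.23), parotid (1.22) and submandibular gland (1.14), in 6 of 6 animals each.

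**Figure D5:**
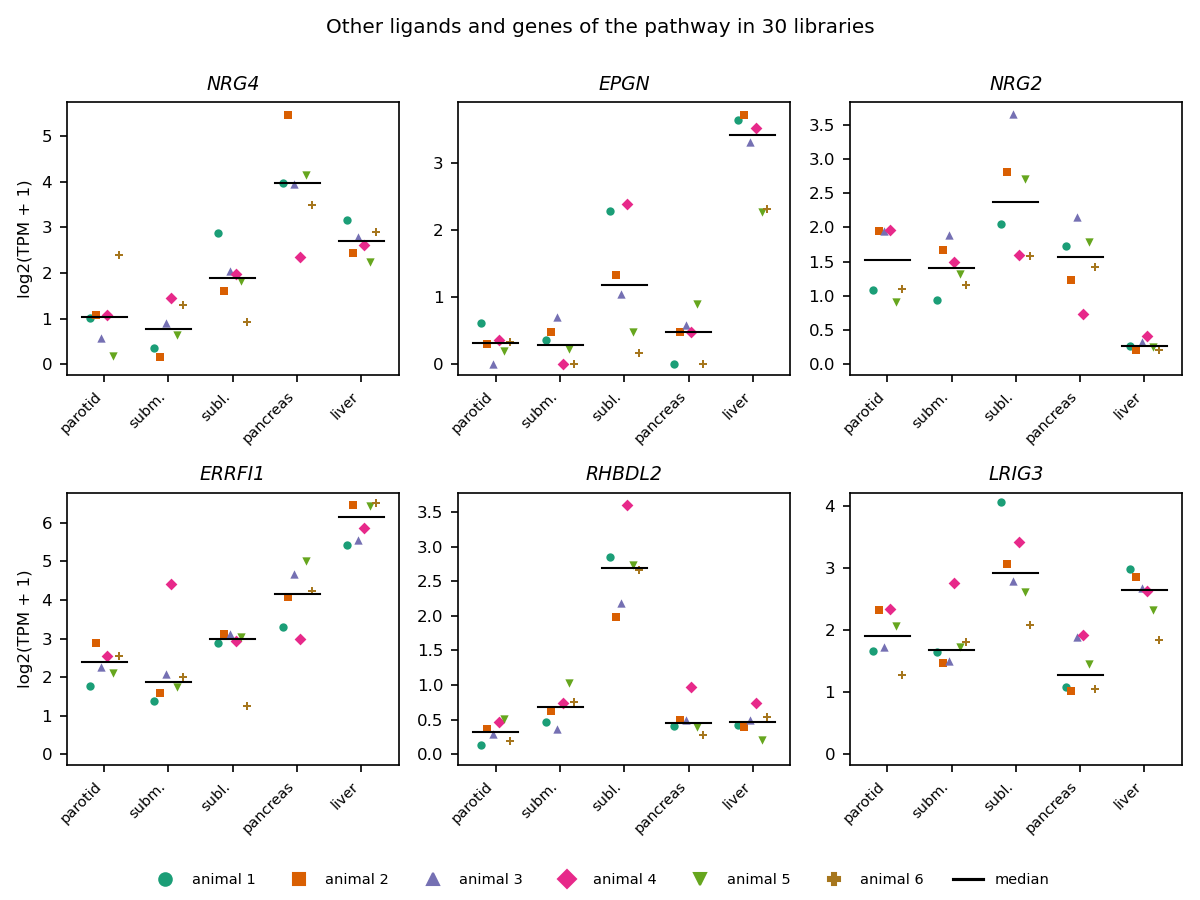
Levels of 3 further ligands and of ERRFI1, RHBDL2 and LRIG3 on the log2(TPM + 1) axis by tissue, 1 point per library with a symbol for each animal and a line at the median of 6. NRG4 had its highest median in pancreas, EPGN and ERRFI1 in liver, and NRG2, RHBDL2 and LRIG3 in sublingual gland.

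Genes that release the ligands were 9, of which 8 were tested. Sublingual gland had 2 higher and 1 lower than liver, beside 12.8% and 18.7% of all genes, and 1 higher and 0 lower than pancreas, beside 10.4% of all genes higher. Parotid and submandibular gland each had 0 higher and 3 lower than liver, beside 53.4% and 45.1% of all genes lower. Pancreas had 0 higher and 1 lower, beside 23.6% lower. RHBDL2, a rhomboid protease able to cut EGF family precursors, was at 2.96, 5.49 and 11.2 TPM in sublingual gland and at most 1.05 TPM in any library of another tissue. Its sublingual range lay above all others. The log2 difference was 2.17 from pancreas and 2.21 from liver, and parotid and submandibular gland were below by -2.35 and -2.01 (SE 0.18, largest limma adjusted p = 6.43e-08). ADAM12, a metalloprotease known to shed HBEGF, was at 1.88 to 6.82 TPM in liver and at most 0.787 TPM elsewhere. RHBDL2 and ADAM12 each met the filter through the tissue where they were high.

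Feedback and turnover genes were 22, of which 18 were tested. Against liver, 10 were lower in parotid, 6 in submandibular gland, 4 in sublingual gland and 3 in pancreas, and 1 was higher, in sublingual gland. The shares of all genes lower than liver were 53.4%, 45.1%, 18.7% and 23.6% in the same order. In sublingual gland 12.8% of all genes were higher than liver. The median log2 difference of the list was -0.84 in parotid, equal to that of all genes at 2 decimals, and -0.60 in submandibular gland beside -0.70. ERRFI1, an inhibitor that binds active EGFR and is induced by it, was at 42.1, 71.2 and 91.2 TPM in liver (lowest, median, highest). In pancreas it was 6.94, 16.8 and 31.5 TPM, in sublingual gland 1.39, 6.96 and 7.71 TPM, in parotid 2.42, 4.31 and 6.42 TPM, and in submandibular gland 1.62, 2.66 and 20.5 TPM. Liver lay above all others without overlap. The differences from liver were -3.70 (parotid), -3.85 (submandibular), -3.32 (sublingual) and -2.0 (pancreas), with an SE of 0.43 (largest limma adjusted p = 0.000642), and they passed with trimmed-mean scaling as well.

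LRIG3, a membrane protein related to the EGFR regulator LRIG1, was higher in sublingual gland than in pancreas (1.60, limma adjusted p = 8.81e-05), parotid and submandibular gland. The last 2 differences, -1.10 and -1.19, became -0.24 and -0.52 with trimmed-mean scaling and no longer passed. DUSP5, a phosphatase of ERK, was at 40.2 and 80.5 TPM in the sublingual libraries of animals 1 and 4 and 0.379 to 7.56 TPM in the other 4. PTPRJ, a phosphatase that acts on EGFR, was below liver in pancreas (-1.19) and submandibular gland (-1.03).

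The relay from receptor to nucleus was covered by 25 adaptor and kinase genes, all tested. Against pancreas 0 of 25 passed in parotid and in submandibular gland, beside 15.8% and 9.71% of all genes. In sublingual gland 1 passed, higher, beside 10.4% of all genes higher. Against liver, 10 were lower in parotid, 8 in submandibular gland, 4 in pancreas and 2 in sublingual gland. Of all genes 53.4%, 45.1%, 23.6% and 18.7% were lower, in the same order. In submandibular gland 1 was higher, beside 769 of all 13550 genes, and in sublingual gland 3, beside 12.8%. In each of the 4 tissues the lower calls were a smaller part of the list than of all genes. STAT3 and STAT5B, transcription factors activated downstream of many receptors, were below liver in sublingual gland (-1.59 and -1.91, limma adjusted p = 0.0126 and 0.00441). STAT3 was also below liver in parotid (-2.36, limma adjusted p = 0.000254) and STAT5B in pancreas (-1.48, adjusted p = 0.0282). MAPK3, which encodes ERK1, was above liver in sublingual gland (1.88, limma adjusted p = 0.00119). Of 12 tested early response genes, 5 were lower than liver in parotid, 5 in submandibular gland, 3 in pancreas and 0 in sublingual gland. The shares of all genes lower were 53.4%, 45.1%, 23.6% and 18.7%, in the same order. In sublingual gland 1 of the 12 was higher than liver, beside 12.8% of all genes higher. DUSP1, an immediate early phosphatase, was higher in submandibular gland than in pancreas, with medians of 125 and 5.97 TPM (log2 difference 3.47, limma adjusted p = 6.56e-05). Its pancreas values were 4.07 to 14.9 TPM in 5 animals and 83 TPM in the off-marker library of animal 4.

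Receptors of other growth factors were set beside the family. Of 9 tested, 6 were lower than liver in parotid, 6 in submandibular gland, 4 in sublingual gland and 3 in pancreas, and 2 were higher in pancreas and 1 in sublingual gland. Of all genes, 53.4%, 45.1%, 18.7% and 23.6% were lower, in the order of the tissues with lower calls. FGFR4, the FGF19 receptor that controls bile acid synthesis, was at 49.8 to 85.5 TPM in liver and at most 15.6 TPM elsewhere. MET, the receptor of hepatocyte growth factor, was below liver in pancreas (-1.32) and sublingual gland (-1.16). FGFR1 (1.90) and IGF1R (1.23) exceeded liver in pancreas. Compared with pancreas, parotid had 6 of these 9 receptors lower, where 1838 of all 13550 genes were lower. Submandibular gland had 4 lower, where 1011 genes were, and the sublingual had 2, where 475 were. In each of these pairs 0 receptors were higher. FGFR3 differed from pancreas by -3.20 (parotid) and -3.17 (submandibular) (limma adjusted p = 3.83e-05 and 5.52e-05). With trimmed-mean scaling these became -2.87 and -3.01 and passed.

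The genes whose log2 levels followed each family gene most closely over the 30 libraries were sought among 6596 genes, as a description that reflects the tissue structure and the libraries they share. For EGF they were TENT5C (Pearson r = 0.862) and DERL3 (0.803), for TGFA KRTAP3-3 (0.889) and SDCBP2 (0.887), and for HBEGF ARHGEF10L (0.895) and TIAF1 (0.893). For NRG1 they were OXT (0.944) and CFB (0.909), the complement factor B gene, and for EGFR they were GAA (0.934) and MTSS1 (0.926). For ERBB2 they were NAPRT (0.943) and REEP3 (0.917), and for ERBB3 GRB7 (0.864), an adaptor gene, and CGN (0.842), a tight junction gene. BTC had the weakest, ARMCX3 (0.75) and ERLEC1 (0.70). DERL3 stood at 156 TPM in pancreas against 7.21 TPM in liver, and CFB at 1016 TPM in liver against 57.1 TPM in sublingual gland.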

How the data were processed

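Per the labels' protocols, RNA from flash-frozen sections was sequenced as paired reads of 150 bases. The authors deposited TPM values per gene, with kallisto, HISAT2, featureCounts and DESeq2 among the tools that the submitters' processing notes list without role or version. The transcriptome, genome build and summing of transcripts are not given in the sources used here, and depth is unknown. TPM were analysed as log2(TPM + 1) with limma 3.58.1 (R 4.3.3) with a variance trend, tissue and animal as terms, and all 30 libraries in 1 fit. The 13550 genes that reached 1 TPM in 6 libraries or more were tested across 10 tissue pairs and by an F test. P-values were two-sided. The fit was tested on simulated data. Same-numbered libraries come from 1 animal; their deviations from tissue means correlated at 0.161 on average, against -0.0186 between animals. No 2 libraries were identical (0 pairs, highest correlation 0.979).

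The family genes, pathway lists, markers and alternatives were chosen with earlier results of these data known. Pathway genes are named where they pass with 1 direction in all 6 animals, at most 2 each way per list and pair; EREG, DUSP5 in single libraries and the squamous marker list were named after their values were seen. Most-alike genes were the 2 with the highest Pearson r, with a symbol and a mean of at least 5 TPM. Alternatives changed the animal block, scaling (trimmed-mean factors, quantile normalisation, relative to all genes except the top 100), pseudocount (0.1), filter (none, 5 TPM), trend, library weights, minimum change and libraries. Of the table's names, 19177 were found in a RefSeq gene table (T2T-MMU8v2.0), used for neighbours only. No per-sample column was unused (0 columns). Sequences and coordinates were not used here.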

Additional observations from a re-analysis of the deposited data

Results flagged for a closer look

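Each set of 6 libraries of a tissue was checked for a library whose gap to the nearest other was too large a part of the whole range on the log2 scale (Dixon's test at the 5% level). Chance picks about 1 set in 20, or 2.5 of the 50 sets, and 10 were picked out. Animal 4 accounts for 5 of them. Its submandibular library held 0.269 TPM of EGF (next 2.03), 6.36 TPM of HBEGF (next 1.75) and 12.2 TPM of ERBB2 (next 6.06). Its pancreas library held 0.227 TPM of EGF (next 4.53). In both libraries the markers of the tissue were low and the adipocyte markers high. Its liver library held 3.26 TPM of EGFR (next 7.82), with a hepatocyte marker median of 10240 TPM, inside the range of the other livers.

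Animal 6 gave 3. HBEGF in its parotid was 24.1 TPM (next 2.73) and NRG1 is listed at 0 there (next 0.0973), in the library with a muscle marker median of 11067 TPM. ERBB3 in its sublingual gland was 3.16 TPM (next 9.78), and EGFR and ERBB2 were also lowest of the 6 in that library, at 0.697 and 6.97 TPM. The library differed as a whole. Its trimmed-mean factor was 0.653, against 1.25 to 1.87 in the other sublingual libraries. In it 9021 genes reached 1 TPM, against 11659 to 13139. The part of this in the receptor levels was not tested. The liver of animal 5 held 2.85 TPM of EGF (next 0.971). The liver of animal 1 held 0.114 TPM of ERBB4 (next 0.0391), both near the bottom of the scale.

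Of 100 comparisons of the 4 females with the 2 males, 1 had every female on one side of 0 and every male on the other. It was NRG1, parotid minus submandibular gland, with mean differences of 0.0614 in females and -0.0711 in males, 0.133 apart on the log2 scale. The difference was not tested, and no NRG1 value exceeded 0.155 TPM in these 2 glands.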

How the results depend on the processing

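Of 28 calls, 22 held with each animal left out in turn, 17 under all 3 scalings and 14 under all 19 alternatives that test every family gene. These 14 include the 7 calls of NRG1 and the 4 of EGFR. Without the animal block, which pairs the libraries of an animal, the calls of EGF for parotid and for sublingual gland against liver were lost (0.83 and 0.91, adjusted p = 0.0923 and 0.108), and the block changed no other call. The cause of each change below was not tested, except that the 5 TPM filter keeps 3 family genes.

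Numbers of family genes called were as follows. Calls among all genes moved with the setting as well. In submandibular gland against pancreas they went from 9.71% to 34.9% without the 3 off-marker libraries. For most settings below the share of all genes is not given, so these counts show how stable the calls are and are no result about the family. Parotid against pancreas (0) gave 1 with a pseudocount of 0.1, 3 with library weights (limma reported that their iterations stopped before converging), 1 with the 12 libraries of the pair, 1 without 3 and 2 without 6 libraries off their markers, 1 without the 2 sublingual libraries high in squamous markers (an alternative chosen after seeing the data), and 0 to 1 with an animal left out. Submandibular gland against pancreas (0) gave 1 with quantile normalisation, 2 with weights, 1 with 12 libraries, 1 without 3 or 6 libraries, and 0 to 1 with an animal left out. Sublingual gland against pancreas (2) gave 1 with the 5 TPM filter, 5 with weights and 4 without 3 libraries. Against liver, the 5 TPM filter gave 3 for pancreas, 2 for parotid, 3 for the submandibular and 0 for the sublingual gland, and the latter gave 7 without 6 libraries. Parotid against sublingual gland (3) gave 1 with the 5 TPM filter and 6 with weights. Submandibular against sublingual gland (3) gave 1 with trimmed-mean scaling, with the 5 TPM filter and with 12 libraries, 6 with weights and without 3 libraries, and 2 to 5 with an animal left out, the 5 without animal 6. The F test (6) gave 3 with the 5 TPM filter.

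Over the 80 differences of the 8 tested genes, signs turned in 14 with trimmed-mean scaling, 16 with quantile normalisation and 20 with the top 100 genes left out of the total, of which 0, 1 and 1 had been called, both times ERBB3 in parotid against liver. None of the turned differences passed under these 3 settings. Among the 28 calls and 18 further differences that the text gives or that other libraries or fits called, signs turned in 18 cases. For HBEGF, parotid minus liver became 0.22 with the top 100 genes left out. Parotid minus sublingual gland became 0.41 with trimmed-mean scaling, 0.35 with quantile normalisation and 0.82 with the top 100 genes left out; with an animal left out it ran from -1.19 to 0.025, positive without animal 4. Submandibular minus sublingual gland became 0.19 with the top 100 genes left out. For EGFR, submandibular minus sublingual gland became 0.098, 0.091 and 0.55 under those 3 scalings. For ERBB3, parotid minus liver became 0.00596 and 0.16 under the last 2, and submandibular minus sublingual gland 0.42 under the last. EGF, parotid minus submandibular gland, became -0.033 without 3 and -0.13 without 6 libraries off their markers, and ran from -0.0037 to 0.31 with an animal left out. BTC, parotid minus liver, became -0.046 with library weights. ERBB2, sublingual gland minus liver, became 0.15 with quantile normalisation and ran from -0.48 to 0.15 with an animal left out.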
